A study of Homo sapiens with 12 samples.

Results

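The genes described here are 36 chaperones, folding enzymes and stress regulators that cells use to fold proteins or to dispose of misfolded ones, 36 of the 59050 gene symbols counted. Their members are the rows with these symbols in both count tables. Of these, 19 act in or report on the endoplasmic reticulum (ER), 15 act in the cytosol and nucleus, and 2 act in mitochondria. The ER genes are 14 folding genes (HSPA5, HSP90B1, DNAJB9, DNAJC3, DNAJB11, SDF2L1, PDIA3, PDIA4, PDIA6, HYOU1, CRELD2, MANF, CALR and CANX), 3 genes of ER-associated degradation (HERPUD1, SEL1L and EDEM1) and 2 transcription factors of the unfolded protein response (XBP1 and DDIT3). The cytosolic genes are HSPA1A, HSPA1B, HSPA8, HSPA4, HSPA4L, HSPH1, HSP90AA1, HSP90AB1, DNAJA1, DNAJB1, HSPB1, CRYAB, BAG3, STIP1 and CHORDC1, and the mitochondrial pair is HSPD1 and HSPE1.

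Poly-A RNA was sequenced in 12 libraries, 3 in each of 4 groups: PA200 knockout (KO) and wild-type (WT) A549 cells, and PA200 KO and WT NCI-H1299 (H1299) cells, both human lung cancer lines. The knockouts were made with CRISPR/Cas9, and all cells had been grown for 48 h before RNA was taken. PA200 is encoded by PSME4 and caps the 20S proteasome core. Nothing in the labels tells whether clones, cultures or repeat preparations separate the 3 libraries of a group, so each p-value is set against library-to-library variation that may be technical. The comparison of KO with WT asked whether the transcripts that respond to misfolded protein differ when PA200 is missing.

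The cell answers misfolded protein with separate transcriptional programmes in separate compartments. In the cytosol, HSF1 binds heat shock elements and raises HSP70, HSP40, HSP90 and small heat shock protein genes. In the ER, the sensors IRE1, PERK and ATF6 start the unfolded protein response, in which ATF6 and spliced XBP1 act on ER stress elements of genes such as HSPA5 (BiP) and HERPUD1, while PERK signalling raises DDIT3 (CHOP). Mitochondria fold imported proteins with HSP60 (HSPD1) and its lid HSP10 (HSPE1), which are transcribed head to head from a shared promoter region.

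The promoters of members the results turn on are printed here, with the elements of each programme marked where a match was found. Sequences are RefSeq windows on GRCh38.p14, each given 5′ to 3′ on the strand of its gene and ending at the base before a RefSeq start of the gene. HSP90AA1 has 2 such windows, and the one that holds the match is printed. Capitals mark a match to the 2-unit form of the heat shock element in HSPA1A (chr6:31815293-31815542, plus strand) and HSPA1B (chr6:31827488-31827737, plus strand). In HSP90AA1 (chr14:102087045-102087294, minus strand) they mark the 3-unit form (both forms are spelled out below). They mark an ER stress element match in HSPA5 (chr9:125241344-125241593, minus strand) and HERPUD1 (chr16:56931892-56932141, plus strand). The 104 bases between the head-to-head RefSeq starts of HSPD1 and HSPE1 (chr2:197500275-197500378, plus strand) held no match.
HSPA1A: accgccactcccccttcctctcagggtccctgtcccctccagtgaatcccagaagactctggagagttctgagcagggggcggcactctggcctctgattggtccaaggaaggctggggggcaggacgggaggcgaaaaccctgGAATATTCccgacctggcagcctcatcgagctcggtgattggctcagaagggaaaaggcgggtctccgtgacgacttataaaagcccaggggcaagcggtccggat
HSPA1B: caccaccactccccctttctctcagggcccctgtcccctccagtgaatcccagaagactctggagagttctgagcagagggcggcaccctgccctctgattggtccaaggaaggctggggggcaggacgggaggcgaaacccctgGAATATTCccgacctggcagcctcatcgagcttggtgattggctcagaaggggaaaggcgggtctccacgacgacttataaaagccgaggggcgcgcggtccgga
HSP90AA1: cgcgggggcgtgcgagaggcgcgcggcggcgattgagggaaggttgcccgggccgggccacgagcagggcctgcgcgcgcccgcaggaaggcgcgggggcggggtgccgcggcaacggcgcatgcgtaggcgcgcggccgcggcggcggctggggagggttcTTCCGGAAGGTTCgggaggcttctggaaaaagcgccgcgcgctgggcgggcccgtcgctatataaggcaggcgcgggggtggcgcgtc
HSPA5: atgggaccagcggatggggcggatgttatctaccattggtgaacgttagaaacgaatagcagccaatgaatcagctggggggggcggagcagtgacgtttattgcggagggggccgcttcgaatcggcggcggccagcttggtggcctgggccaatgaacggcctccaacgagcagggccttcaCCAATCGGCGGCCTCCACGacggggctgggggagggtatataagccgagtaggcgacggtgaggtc
HERPUD1: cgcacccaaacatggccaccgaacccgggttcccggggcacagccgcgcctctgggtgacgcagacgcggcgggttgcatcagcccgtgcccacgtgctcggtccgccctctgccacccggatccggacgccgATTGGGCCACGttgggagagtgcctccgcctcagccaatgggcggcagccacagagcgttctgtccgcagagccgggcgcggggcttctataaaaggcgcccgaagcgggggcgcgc
HSPD1-HSPE1: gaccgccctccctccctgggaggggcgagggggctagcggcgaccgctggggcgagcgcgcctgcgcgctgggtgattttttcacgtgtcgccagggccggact

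The match begins at -106 from the gene start in HSPA1A and at -105 in HSPA1B, and the 250 bases of the 2 genes were 93.6% identical, with 14 mismatches and 2 gaps. Motifs were searched on both strands in windows from 250 bases before to 50 bases after each start, and 34 of the 36 members had at least 1 window (PDIA3 and CRYAB had none). A member counted as matched if any of its windows did (up to 4, in CANX), whereas the shares of all windows count single windows. The heat shock element with 3 units (GAA, TTC and GAA, with any 2 bases between neighbours) was found in 6 of 16 cytosolic and mitochondrial members (HSPA8, DNAJA1, HSP90AA1, HSP90AB1, HSPD1 and CHORDC1) and in 0 of 18 ER members, against 0.49% of all 35116 windows. The 2-unit form (GAA, any 2 bases, TTC), which every 3-unit match contains, was found in 10 of the 16 cytosolic and mitochondrial members, in 1 of the 18 ER members (CANX) and in 6.77% of all windows. The ER stress element (CCAAT, any 9 bases, CCACG) or its form II (ATTGG, any 1 base, CCACG) was found in 10 of the 18 ER members (HSPA5, HSP90B1, SDF2L1, HERPUD1, XBP1, PDIA6, HYOU1, CRELD2, CALR and CANX) and in 0 of the 16 others, against 0.0769% of all windows for the first form and 0.0541% for form II. The HSPD1 match lies in the window of another annotated HSPD1 start, outside the 104 bases printed. A match describes the letters in these windows and does not show binding.

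The libraries held between 16599401 and 40983933 counts, and every A549 KO library (at least 30645131) was deeper than every A549 WT library (at most 21112339). PSME4 stood at 23.6, 21.1 and 17.2 CPM (counts per 1000000 counts, with library sizes scaled by TMM so that all 12 libraries share 1 scale) in A549 KO, against 142, 197 and 195 CPM in A549 WT. It stood at 49.8, 54.3 and 51.3 CPM in H1299 KO, against 258, 218 and 239 CPM in H1299 WT, so the targeted transcript was low in all 6 KO libraries. As a marker of line identity, CDKN2A, known to be deleted in A549, had 0 counts in all A549 libraries and 28.4 to 50.6 CPM in H1299. The keratins KRT8 and KRT18 were between 1136.8 and 2688.5 CPM in A549 and at most 259 CPM in H1299. Of 11 markers of leukocytes, endothelium and fibroblasts, 5 had 0 counts in A549 KO, 5 in A549 WT, 4 in H1299 KO and 5 in H1299 WT, and PTPRC and CD3E had 0 counts in all 12 libraries. Their summed level was 7.59 to 11.4 CPM in A549 KO, 4.42 to 12.8 CPM in A549 WT, 0.784 to 1.48 CPM in H1299 KO and 1.09 to 1.33 CPM in H1299 WT.

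**Figure D1:**
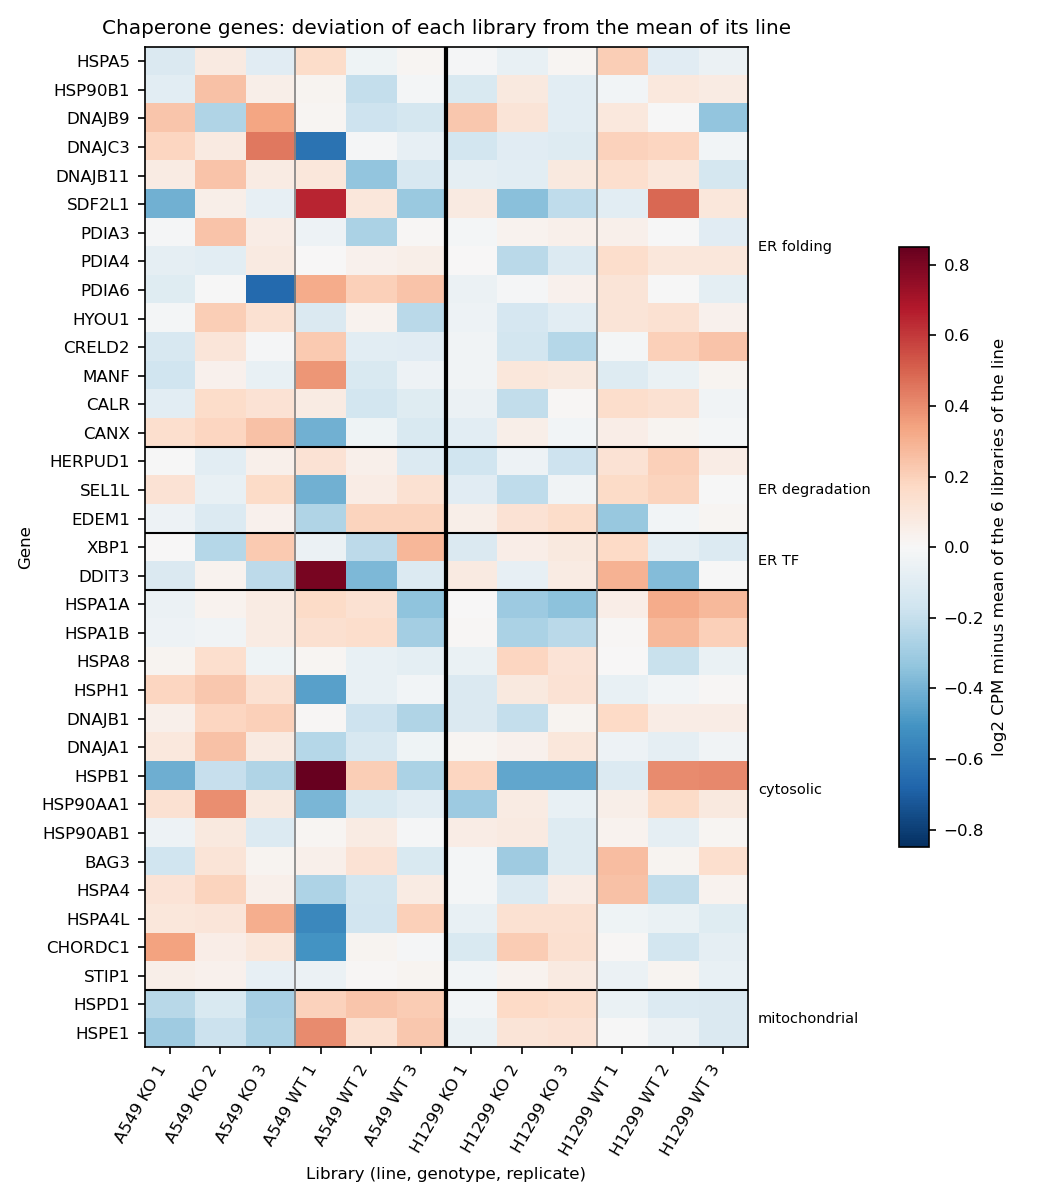
Each row is a chaperone gene and each column a library, and the colour is the log2 CPM of that library minus the mean of the 6 libraries of its line (KO left of WT in each line). HSPD1 and HSPE1 are below the line mean in all 3 A549 KO libraries and above it in all 3 A549 WT libraries, and single libraries stand apart for single genes, such as PDIA6 in A549 KO replicate 3 and DDIT3 in A549 WT replicate 1.

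In A549, no chaperone gene passed the threshold of an adjusted p under 0.05 (edgeR quasi-likelihood test, Benjamini-Hochberg adjustment over all 20093 genes tested). The count was 0 of 35 tested members, where 2.14% of all genes tested were called (0.99% higher and 1.15% lower). CRYAB, a small heat shock protein, had 18 counts in all in A549 KO, 7 in A549 WT, 1 in H1299 KO and 2 in H1299 WT and was too low to test. As the libraries are bulk RNA, fewer cells expressing a gene and less RNA of it per cell cannot be told apart. At an unadjusted p under 0.05 there were 8 members, against 3845 of all 20093 genes, and DESeq2 called 2 members while limma-voom called 0. The median log2 fold change, KO over WT, was -0.03 for the 19 ER members, 0.04 for the 16 cytosolic and mitochondrial members and -0.01 for all genes tested. Taken apart, it was 0.141 for the 14 cytosolic members tested and -0.485 for the 2 mitochondrial members. The ER median was 0.08 without WT replicate 1 and 0.10 without WT replicate 3, so its sign rests on single libraries. The KO and WT libraries did not overlap for 10 of the 35 members, 7 with KO above WT and 3 with KO below it. The share of all 20093 genes was 25.5%, with 2718 genes above and 2409 below. The 95% interval of the fold change lay within 2-fold either way for 34 of the 35 members and within 1.5-fold for 22, so larger changes were outside the interval for these genes and smaller ones could not be resolved. The exception at 2-fold was HSPB1 (-1.28 to -0.06 on the log2 scale).

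Among the ER folding genes, PDIA6, a protein disulfide isomerase, had the smallest p in A549. It stood at 444.5, 475.8 and 302.4 CPM in A549 KO, against 593.4, 549.4 and 564.9 CPM in A549 WT, a log2 fold change of -0.50 (SE 0.17, adjusted p = 0.1704). The groups did not overlap, and KO replicate 3 was the lowest library. PDIA6 lies on the short arm of chromosome 2 (2:10783391-10837977, minus strand), whose 522 genes had a median shift of -0.47 between A549 KO and WT, with KO replicate 3 at -0.45 and the other KO replicates at -0.11 and -0.15. Of these genes 46.2% had a lower fold change than PDIA6, and with the arm median taken out of every library PDIA6 stood at -0.05. In the fit over all 12 libraries PDIA6 was called lower (-0.48, adjusted p = 0.0494). PDIA6 overlaps ATP6V1C2 on the opposite strand (57171 counts beside 151234 of PDIA6), and the strand setting is unknown. PDIA4, another disulfide isomerase of the ER, was at 269, 266 and 299 CPM in A549 KO and 285, 291 and 294 CPM in A549 WT (-0.08), so its groups overlapped. The other 12 ER folding genes lay between -0.34 (SDF2L1, a partner of the ER DnaJ protein DNAJB11) and 0.44 (DNAJC3, a BiP cochaperone). HSPA5, the ER HSP70 (BiP), averaged 741 ± 57.4 CPM in A549 KO and 791 ± 55.2 CPM in A549 WT (SD, n = 3 each), a difference of -0.11 with a 95% interval from -0.38 to 0.16. CANX, the lectin chaperone calnexin, averaged 1281.0 ± 45.5 CPM in A549 KO and 987.6 ± 127 CPM in A549 WT (SD, n = 3 each). Its log2 fold change of 0.36 (SE 0.13, adjusted p = 0.186) missed the threshold, with no overlap between the groups, and it was called higher in the fit over all 12 libraries (adjusted p = 0.0345).

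The genes of ER-associated degradation and the 2 stress transcription factors overlapped between A549 KO and WT throughout. EDEM1, which directs misfolded glycoproteins to degradation, was at 65.5, 62.1 and 69.1 CPM in A549 KO and 56.5, 76.8 and 76.9 CPM in A549 WT (-0.11, SE 0.15, adjusted p = 0.723). HERPUD1, a scaffold of the degradation complex, was at 62.7, 59.1 and 64.9 CPM in A549 KO and 68.4, 64.7 and 58.2 CPM in A549 WT (-0.05). DDIT3, the CHOP transcription factor, was at 13.9, 15.4 and 12.9 CPM in A549 KO and 26.43, 11.59 and 13.95 CPM in A549 WT (-0.31, SE 0.29, adjusted p = 0.60). WT replicate 1 alone held the high DDIT3 value, and without it the log2 fold change was 0.14. DDIT3 overlaps MARS on the opposite strand, which held 76046 counts beside 4866 of DDIT3, so with the strand setting unknown its values are uncertain. XBP1, whose spliced and unspliced forms gene counts do not separate, averaged 61.5 ± 9.79 CPM in A549 KO and 62.0 ± 11.3 CPM in A549 WT (SD, n = 3 each).

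In the cytosolic group, 9 of 14 tested genes were above 0 and 5 below in A549, with none past the threshold. HSP90AA1, the inducible cytosolic HSP90, had the smallest p. It stood at 3665.7, 4412.3 and 3540.0 CPM in A549 KO, against 2555.7, 3063.7 and 3138.8 CPM in A549 WT, a log2 fold change of 0.39 (SE 0.14, adjusted p = 0.177). Every KO library was above every WT library, while its constitutive paralog HSP90AB1 stood at -0.06 with overlapping groups. HSPA1A, the stress-inducible HSP70, was at 127, 134 and 138 CPM in A549 KO and 147, 144 and 104 CPM in A549 WT, a log2 fold change of 0.00 (95% interval -0.34 to 0.34). DNAJC3 in the ER and HSP90AA1, HSPH1 (an HSP110), DNAJB1 and DNAJA1 (HSP40s) and CHORDC1 (an HSP90 cochaperone) in the cytosol were the 6 members other than CANX with all KO libraries above all WT libraries. HSPB1 (HSP27) was singled out after its values were seen, for the lowest fold change of any member. It stood at 82.9, 96.7 and 92.7 CPM in A549 KO, against 211, 128 and 91.6 CPM in A549 WT (-0.67, SE 0.27, adjusted p = 0.219), with WT replicate 1 far above the other libraries.

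The mitochondrial pair came closest to the threshold in A549. HSPD1, the HSP60 chaperonin, was at 995, 1074.2 and 963 CPM in A549 KO, against 1340.4, 1383.3 and 1361.1 CPM in A549 WT, a log2 fold change of -0.45 (SE 0.11, adjusted p = 0.0729). HSPE1, its HSP10 partner, was at 187, 203 and 192 CPM in A549 KO, against 306, 252 and 271 CPM in A549 WT, a log2 fold change of -0.52 (SE 0.12, adjusted p = 0.0616). Neither gene overlapped between the groups. Both lie on the long arm of chromosome 2 (HSPD1 at 2:197486581-197516737 on the minus strand, HSPE1 at 2:197499994-197503457 on the plus strand). The 756 genes of this arm had a median deviation of -0.21, -0.25 and -0.22 in the 3 A549 KO libraries, against 0.12, 0.24 and 0.29 in the 3 A549 WT libraries. Of these genes 50.4% had a lower fold change than HSPD1 and 40.5% a lower one than HSPE1, so the pair lay near the middle of its arm. After centring within arms HSPD1 stood at 0.00 (adjusted p = 0.993) and HSPE1 at -0.09 (adjusted p = 0.792). Both genes were called lower by DESeq2, in the fit over 12 libraries and after a loess correction for GC content and length, with adjusted p from 0.00264 to 0.0219. HSPE1 shares exons with the readthrough gene HSPE1-MOB4, which held 86527 counts beside the 92105 of HSPE1, so their reads cannot be fully separated. HSPE1 also lies within the annotated span of HSPD1 on the opposite strand, which held 484867 counts. With the strand setting unknown, reads of the pair could mix.

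**Figure D2:**
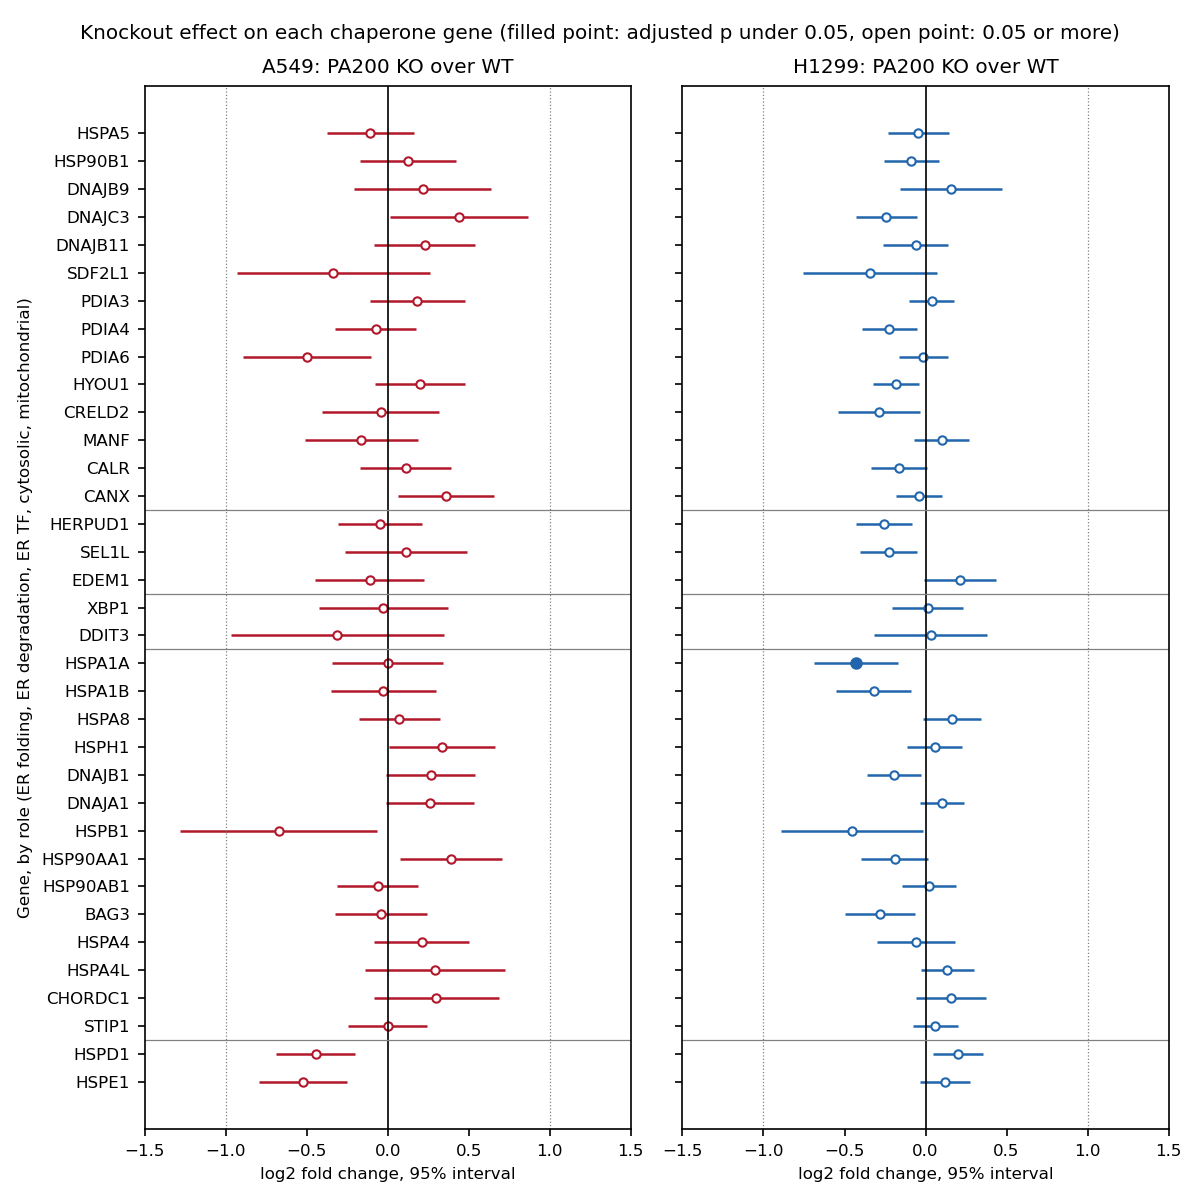
Points are log2 fold changes of KO over WT for 35 chaperone genes in A549 (left) and H1299 (right), lines are 95% intervals, and dotted lines mark a 2-fold change either way. HSPA1A in H1299 is the single filled point (adjusted p under 0.05), and in A549 only HSPB1 has an interval that crosses 2-fold.

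In H1299, 1 of 35 tested members was called, HSPA1A, which was lower in the knockout, where 8.84% of all 20194 genes tested were called (4.66% higher and 4.18% lower). HSPA1A stood at 68.5, 55.0 and 53.6 CPM in H1299 KO, against 71.1, 85.1 and 82.7 CPM in H1299 WT, a log2 fold change of -0.43 (SE 0.12, 95% interval -0.69 to -0.17, adjusted p = 0.0496). The groups did not overlap, but KO replicate 1 and WT replicate 1 were close to each other. The call was made under 5 of 16 alternatives, with adjusted p from 0.000552 to 0.175 over all of them. The arm of HSPA1A, 6p, deviated by a median 0.062, 0.04 and -0.177 in H1299 KO and 0.058, -0.025 and 0.029 in H1299 WT. Centring within arms lost the call (-0.39, adjusted p = 0.0608). Leaving out 1 library at a time kept it without WT replicate 1 (0.0307) and KO replicate 1 (0.0233) and lost it without WT replicate 2 (0.111), WT replicate 3 (0.14), KO replicate 2 (0.149) and KO replicate 3 (0.175). Its neighbour HSPA1B, whose protein is nearly the same, was at 62.44, 51.58 and 53.04 CPM in H1299 KO, against 62.49, 75.02 and 71.29 CPM in H1299 WT (-0.32, SE 0.10, adjusted p = 0.0871). The 2 genes are neighbours on the short arm of chromosome 6 (HSPA1A at 6:31815464-31817946 and HSPA1B at 6:31827735-31830255, both on the plus strand), and 71.2% of the 75-base stretches of the HSPA1A transcript also occur in HSPA1B. The transcript AL671762.1 also overlaps HSPA1B on its strand, with 29154 counts beside 28272. Reads may therefore be assigned to the wrong gene, and with both counts summed the pair stood at -0.38 (adjusted p = 0.0598).

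The other 34 H1299 members did not pass the threshold. The median log2 fold change was -0.06 for the 19 ER members, 0.04 for the 16 cytosolic and mitochondrial members and 0.00 for all genes tested. Taken apart, it was -0.018 for the 14 cytosolic members tested and 0.159 for the 2 mitochondrial members. At an unadjusted p under 0.05 there were 12 members, against 5075 of all 20194 genes. The groups did not overlap for 13 of the 35 members, beside 30.1% of all 20194 genes (3152 with KO above WT and 2935 with KO below it). Of the 13 members, 3 had KO above WT (EDEM1, DNAJA1 and HSPD1) and 10 had KO below it. The 10 were the ER genes DNAJC3, PDIA4, HYOU1, CRELD2, HERPUD1 and SEL1L and the cytosolic genes HSPA1A, HSPA1B, DNAJB1 and BAG3. The 95% intervals were narrower than in A549, with all 35 within 2-fold and 32 within 1.5-fold.

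Among the ER genes of H1299, HERPUD1 had the smallest p. It was at 35.97, 39.12 and 35.84 CPM in H1299 KO, against 43.9, 46.6 and 42.2 CPM in H1299 WT (-0.26, SE 0.08, adjusted p = 0.07). The 2 groups did not overlap, and HERPUD1 lies on the long arm of chromosome 16, whose genes had a median shift of -0.16 between H1299 KO and WT. The arm medians were -0.098, -0.057 and -0.092 in H1299 KO, against 0.009, 0.19 and 0.02 in H1299 WT, with WT replicate 2 standing apart. After centring within arms HERPUD1 stood at -0.10. PDIA4 was at 245, 208 and 226 CPM in H1299 KO, against 271, 261 and 261 CPM in H1299 WT (-0.22, SE 0.08, adjusted p = 0.0999), again with no overlap. PDIA6 was at 447, 459 and 474 CPM in H1299 KO and 499, 460 and 435 CPM in H1299 WT (-0.01), so the groups overlapped. EDEM1 was at 45.2, 47.5 and 48.6 CPM in H1299 KO, against 34.9, 42.9 and 44.1 CPM in H1299 WT (0.21, SE 0.10, adjusted p = 0.219), opposite in sign to HERPUD1 and SEL1L of the same degradation pathway. DDIT3 was at 15.46, 13.95 and 15.35 CPM in H1299 KO and 17.95, 11.36 and 14.59 CPM in H1299 WT (0.03, SE 0.16, adjusted p = 0.922), and HSPA5 averaged 497 ± 14.8 CPM in H1299 KO and 513 ± 59.8 CPM in H1299 WT (SD, n = 3 each). XBP1 stood at 0.01, so neither stress transcription factor was separated between the genotypes.

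HSP90AA1, the member with the highest level per transcript length in H1299, was at 5998.2, 7810.1 and 7131.5 CPM in H1299 KO, against 7712.0, 8305.8 and 7893.0 CPM in H1299 WT (-0.19, SE 0.09, adjusted p = 0.234), with overlapping groups. HSPB1 stood at -0.45 (adjusted p = 0.186) with 125, 81.0 and 80.9 CPM in H1299 KO and 102, 146 and 146 CPM in H1299 WT. In both lines replicate 1 of WT lay on the far side of its group for HSPB1, above the others in A549 and below them in H1299. In H1299 HSPB1 was called lower without KO replicate 1 (-0.70, adjusted p = 0.0404) and with no filter (-0.46, adjusted p = 0.00161). HSPD1 was at 1748.3, 2003.0 and 1967.7 CPM in H1299 KO, against 1710.2, 1641.2 and 1630.7 CPM in H1299 WT (0.20, SE 0.07, adjusted p = 0.103). HSPE1 was at 319, 357 and 360 CPM in H1299 KO and 330, 321 and 305 CPM in H1299 WT (0.12, SE 0.07, adjusted p = 0.325). HSPA4L, an HSP110 family gene on the long arm of chromosome 4, missed the threshold at 0.14 (adjusted p = 0.283). Its arm had a median shift of 0.38 in H1299, and after centring within arms it was called lower (-0.25, adjusted p = 0.0415).

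**Figure D3:**
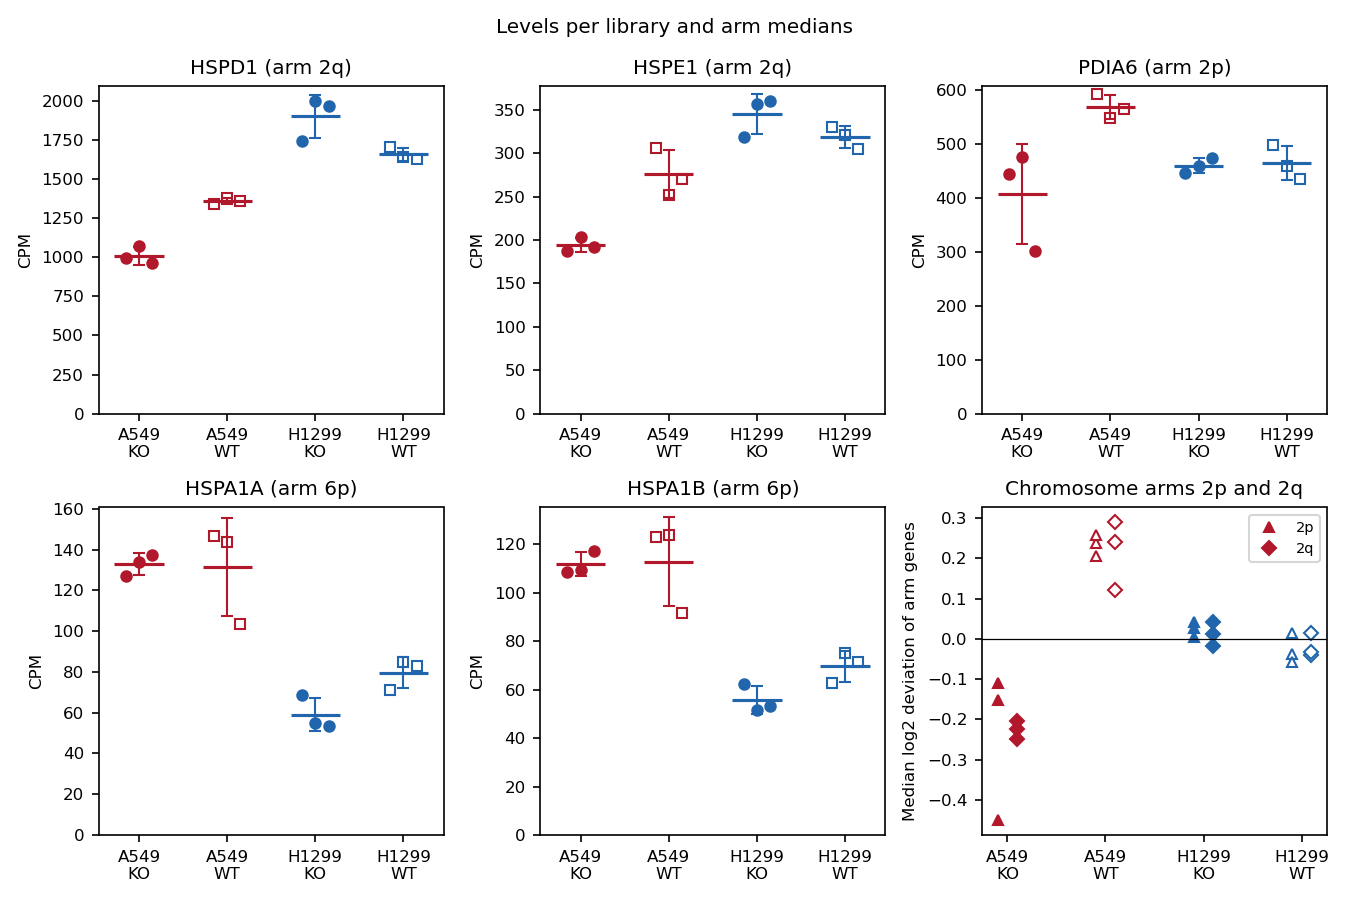
The first 5 panels give CPM by library (points), with the mean as a bar and the SD as the error bar (n = 3), for HSPD1, HSPE1, PDIA6, HSPA1A and HSPA1B, each on an axis from 0. The last panel gives the median log2 deviation of the genes of arms 2p and 2q in each library, in which all 3 A549 KO libraries are below 0 and all 3 A549 WT libraries above it, while the H1299 libraries stay near 0.

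The difference between the lines was tested as the KO effect in H1299 minus that in A549, in 1 fit over all 12 libraries. Of 35 tested members 2 were called, HSPD1 (0.63, SE 0.12, adjusted p = 0.0146) and HSPE1 (0.63, SE 0.13, adjusted p = 0.0247), where 3.48% of all 22635 genes were called (1.97% higher and 1.52% lower). The positive difference combines a lower level in A549 KO than in A549 WT with a higher mean in H1299 KO than in H1299 WT. HSPD1 kept its call in all 12 fits that each left out 1 library, with adjusted p up to 0.0485. HSPE1 kept it in 6 of 12, losing it without A549 KO replicate 1 or 3, H1299 WT replicate 2 or 3, or H1299 KO replicate 2 or 3, with adjusted p up to 0.0742. After centring within arms both calls were lost, with HSPD1 at 0.16 (adjusted p = 0.57) and HSPE1 at 0.16 (adjusted p = 0.677). HSP90AA1 (-0.60, adjusted p = 0.074), DNAJB1 (-0.48, adjusted p = 0.0805) and DNAJC3 (-0.70, adjusted p = 0.0919) missed the threshold in edgeR and were called by DESeq2 (adjusted p = 0.0189 for HSP90AA1, 0.0116 for DNAJB1 and 0.0357 for DNAJC3). HSP90AA1 was also called with no filter (0.0493), DNAJC3 after the GC and length correction (0.0211), and DNAJB1 after that correction (0.0369), after centring within arms (0.0495) and without A549 WT replicate 1 (0.0272). Of the 19 ER genes 0 were called by edgeR and 4 had an unadjusted p under 0.05, while DESeq2 called 3, all negative: DNAJC3, HYOU1 (-0.40, adjusted p = 0.0237) and CANX (-0.42, adjusted p = 0.0458).

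Before any knockout the lines differed widely in these genes. In H1299 WT over A549 WT 27 of 35 members were called, 12 higher and 15 lower, where 65.6% of all 22635 genes were called (31.8% higher and 33.7% lower), so the share of the members is to be read against a high background. HSP90AA1 was the member with the highest difference, at 1.45 (SE 0.12, adjusted p = 3.26e-07), with 7970.3 ± 304 CPM in H1299 WT and 2919.4 ± 317 CPM in A549 WT (SD, n = 3 each). HYOU1, the ER HSP110 that helps BiP release nucleotide, followed at 1.02, then HSPA4L and HSPA4 of the same HSP110 family at 0.77 and 0.75, DNAJB11, a BiP cochaperone, at 0.68, and CALR, calreticulin, at 0.51. DNAJB11 overlaps AC068631.2 on its strand, with 13151 counts beside 24544 of DNAJB11, so reads may be assigned to the wrong gene. At the lower end were CHORDC1 (-0.85), EDEM1 (-0.79), CANX (-0.77), XBP1 (-0.73), HSPA1A (-0.72), HSPA1B (-0.70) and HSPA5 (-0.62). All 3 degradation genes were lower in H1299 WT (SEL1L at -0.49, HERPUD1 at -0.53). Of the 19 ER members 4 were called higher, 9 lower and 6 not called, and of the 16 cytosolic and mitochondrial members 8 were called higher, 6 lower and 2 not called. Some relatives were called in the same direction: both cytosolic HSP90 genes were higher (HSP90AB1 at 0.44), as was HSPH1 (0.49) with the other HSP110 genes, and HSPA1A and HSPA1B were both lower. Others differed in direction, with HSPA8 higher (0.47) where HSPA1A was lower, and DNAJB1 higher (0.36) where DNAJA1 was lower (-0.57). The 8 members not called were DNAJC3, SDF2L1, DDIT3, PDIA3, PDIA4, PDIA6, HSPB1 and HSPE1, with the widest interval for HSPB1 (-0.69 to 0.44). The H1299 WT and A549 WT libraries did not overlap for 29 of the 35 members, beside 67.9% of all genes.

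**Figure D4:**
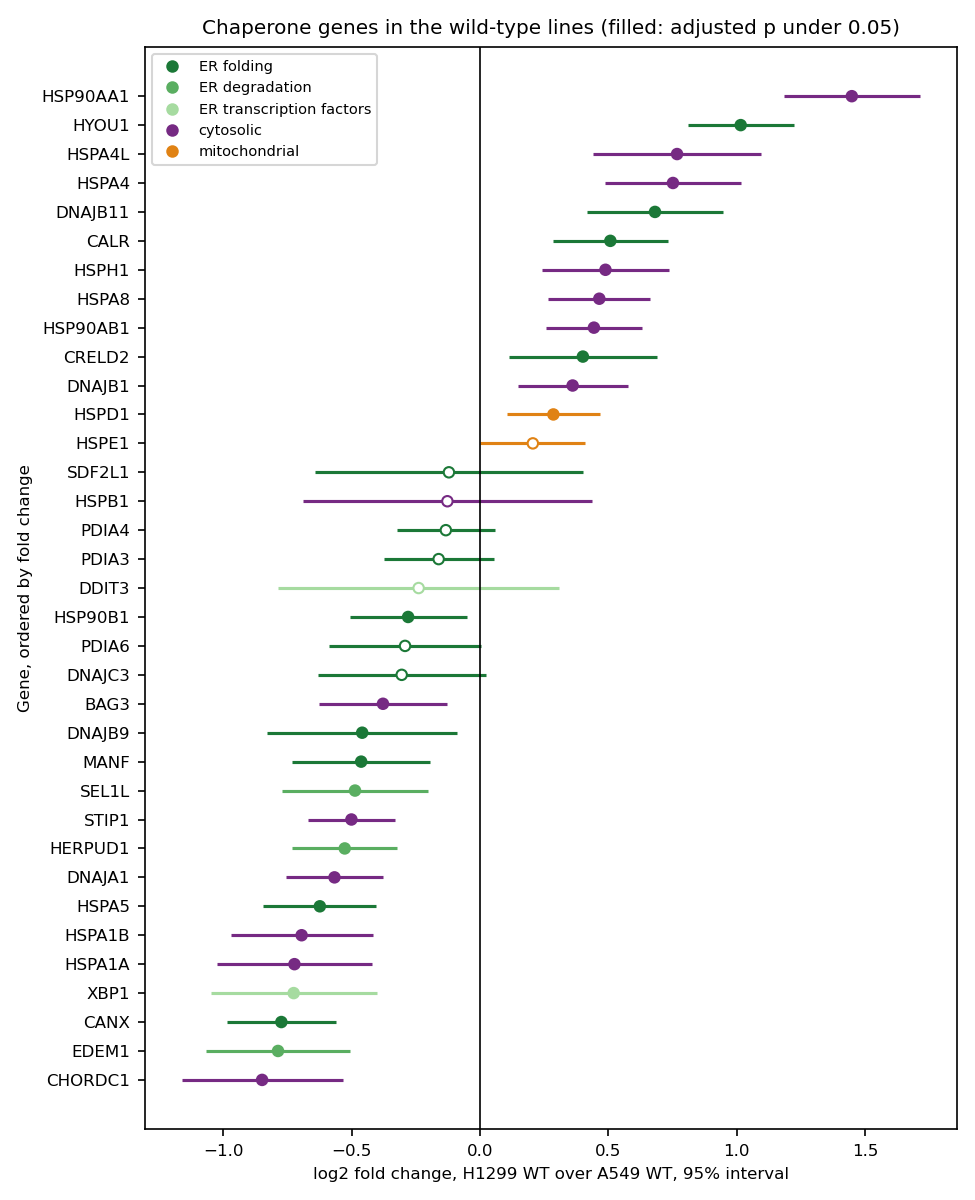
Points are log2 fold changes of H1299 WT over A549 WT for 35 chaperone genes in order of size, with 95% intervals as lines, coloured by role, and filled where the adjusted p was under 0.05. HSP90AA1 is at the top with 1.45 and CHORDC1 at the bottom with -0.85, and all 3 ER degradation genes lie below 0.

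Per kilobase of the longest annotated transcript, 3 cytosolic chaperones had the highest levels in all 4 groups. In H1299 KO the mean level was 1988.6 CPM per kb for HSP90AA1, 1384.7 for HSPA8 and 1216.8 for HSP90AB1, against 2270.7, 1236.6 and 1199.5 CPM per kb in H1299 WT. In A549 KO it was 1103.3 CPM per kb for HSP90AA1, 951.5 for HSPA8 and 853.4 for HSP90AB1, against 831.7, 895.9 and 881.9 CPM per kb in A549 WT. Among ER members HSP90B1, the ER HSP90, had the highest level per length in A549 (416 CPM per kb in KO and 378 in WT) and CALR in H1299 (332 CPM per kb in KO and 372 in WT). HSPA1A, at 23.8 CPM per kb in H1299 KO and 32.1 in H1299 WT, was far below its constitutive relative HSPA8.

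Summed over the group, the 19 ER genes held 5386.1, 6012.0 and 5640.7 CPM in A549 KO, against 5394.7, 5209.3 and 5433.1 CPM in A549 WT, with overlap. In H1299 they held 4177.6, 4253.9 and 4302.0 CPM in KO, against 4635.5, 4523.0 and 4330.2 CPM in WT, so the H1299 groups did not overlap but nearly met. The 15 cytosolic genes held 10689.3, 11962.5 and 10335.4 CPM in A549 KO, against 9413.9, 9958.6 and 9860.5 CPM in A549 WT, with no overlap. HSP90AA1 alone averaged 3872.6 CPM in A549 KO and 2919.4 CPM in A549 WT, beside cytosolic sums of 10995.7 and 9744.4 CPM in the same groups. In H1299 the cytosolic sum was 14624.9, 16982.4 and 15883.5 CPM in KO and 16552.7, 16380.8 and 16513.7 CPM in WT, with overlap. To weigh each gene equally, the mean log2 deviation of the cytosolic and mitochondrial members from the line mean was subtracted from that of the ER members. This ER balance was -0.02, -0.04 and 0.04 in A549 KO, against 0.08, -0.09 and 0.02 in A549 WT, and 0.01, -0.03 and -0.02 in H1299 KO, against 0.05, 0.04 and -0.06 in H1299 WT. For this balance the genotypes overlapped in both lines. The cytosolic mean deviation alone did not overlap in either line. It was 0.025, 0.113 and 0.044 in A549 KO, against -0.082, -0.013 and -0.089 in A549 WT. In H1299 it was -0.041, -0.058 and -0.038 in KO, against 0.039, 0.034 and 0.064 in WT. By the median over the same genes the A549 groups did not overlap and the H1299 groups did. The H1299 medians were -0.022, 0.033 and 0.042 in KO, against 0.011, -0.002 and 0.022 in WT. With the mitochondrial pair included, the mean overlapped in A549 and not in H1299. Of single genes, 25.5% in A549 and 30.1% in H1299 had groups that did not overlap. The ER mean deviation alone overlapped in A549. In H1299 it was -0.034, -0.06 and -0.031 in KO, against 0.076, 0.064 and -0.015 in WT, with no overlap. Replicate 1 of A549 WT was the library farthest from its group's median for 24 of 35 members, and the median SD of a member between libraries was 0.11 on the log2 scale in A549 KO, 0.16 in A549 WT, 0.11 in H1299 KO and 0.10 in H1299 WT.

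The 6 further lists, with 189 genes in all, placed the members among other genes of protein folding, translocation, degradation and stress signalling. Of these, 179 were tested in A549 and 182 in H1299. In A549, 1 was called, or 0.559% of those tested, beside 2.14% of all genes. This gene was DNAJC15, a DnaJ protein of the mitochondrial import motor, which was higher in the knockout. It had 70 counts in A549 KO and 3 in A549 WT, a ratio of 12.6 after scaling to library size (95% counting interval 4.15 to 62.8, adjusted p = 0.0389). It averaged 18.5 ± 1.32 CPM in H1299 KO and 17.7 ± 0.706 CPM in H1299 WT (SD, n = 3 each). The A549 call was lost in 5 of the 6 fits that left out a library. DNAJC15 averaged 0.682 CPM in A549 KO and 0.0514 CPM in A549 WT, so it passed the count filter through the KO libraries alone. No adjusted p was obtained for it in A549 with DESeq2 or with the filter of 1 CPM in 3 libraries. In H1299, 13 were called higher and 6 lower, or 10.4% of those tested, beside 8.84% of all genes.

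In the list of other ER folding and glycosylation genes 2 of 40 tested rose in H1299 KO, DNAJC1, an ER-membrane DnaJ protein (17.3 ± 0.753 CPM in H1299 KO and 11.9 ± 0.207 CPM in H1299 WT, 0.54), and the disulfide isomerase TXNDC5 (383.5 CPM in H1299 KO and 292.2 CPM in H1299 WT, 0.39, SE 0.08). In ER translocation and degradation 4 of 35 rose and 1 fell. The risen genes were the ubiquitin ligase RNF139 (0.49), the translocon protein TRAM1 (0.39), the retrotranslocation protein DERL1 (0.40) and the ubiquitin-conjugating enzyme UBE2J1 (0.43), and the translocon gene SSR2 fell by 0.43 on the log2 scale. Of 23 genes for sensors and effectors of the unfolded protein response, the transcription factor CREB3L4 (-0.71), the calcium-binding protein NUCB2 (-0.36) and the site-1 protease MBTPS1 (-0.47) fell and the transcription factor CREB3L1 rose (1.62, with 3.12 ± 2.00 CPM in H1299 KO and 1.03 ± 0.111 CPM in H1299 WT). UBE2J1, SSR2, CREB3L1 and DNAJC2 lie outside the limit of 3 names per list and were added after their values were seen.

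In the list of other cytosolic chaperones and cochaperones 4 of 46 tested rose in H1299 KO. They were the cyclophilin PPID (0.68), the heat shock transcription factor HSF2 (0.47), the HSP90 cochaperone TTC4 (0.36) and DNAJC2 (0.23). Among 18 genes of chaperonin and prefoldin URI1 rose (0.29) and PFDN1 fell by 0.36 on the log2 scale, and among 20 mitochondrial chaperones and proteases the HSP70 exchange factor GRPEL1 rose (0.53) and the protease SPG7 fell by 0.33. Many of these genes lie on chromosome arms whose median differed between H1299 KO and WT. RNF139, TRAM1 and DERL1 lie on 8q (0.25), PPID on 4q (0.38), GRPEL1 on 4p (0.26), and UBE2J1 and HSF2 on 6q (0.21). MBTPS1 and SPG7 lie on 16q (-0.16), and CREB3L4 and SSR2 on 1q (-0.28). The 16q medians were -0.098, -0.057 and -0.092 in H1299 KO, against 0.009, 0.19 and 0.02 in H1299 WT, with WT replicate 2 standing apart. After centring within arms 8 of the 19 calls were kept (DNAJC1, TXNDC5, NUCB2, CREB3L1, PPID, DNAJC2, URI1 and PFDN1) and 11 were lost. Leaving out 1 library at a time kept the call in all 6 fits for PPID and RNF139 only, and PPID alone was called under every alternative run. Among the genes kept after centring, TXNDC5, NUCB2 and CREB3L1 each lost the call in 4 of the 6 leave-one-out fits. Their adjusted p reached 0.0713, 0.12 and 0.0916. URI1 and PFDN1 each lost the call in 5 (adjusted p up to 0.135 and 0.144), DNAJC2 lost it in all 6, and DNAJC1 lost it in 1.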

How the data were processed

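The authors deposited raw read counts per gene symbol, with the 6 libraries of each line in a table of their own, and all 12 columns carry sample titles (0 were unmapped). Per the labels' protocols, a stranded poly-A kit was used with 1 µg of RNA. The submitters' processing notes name bcl2fastq 2.20.0.422 and the mouse build GRCm38.p6, although the symbols are human. The aligner, the counting tool and its strand setting are not given in the sources used here. Counts were analysed in R 4.3.3 with edgeR 4.0.16 (filterByExpr with a minimum count of 10, TMM, quasi-likelihood test, Benjamini-Hochberg over all genes tested, threshold 0.05), in each line over its 6 libraries, and for the difference between lines and the wild-type lines over all 12. Replicate numbers follow accession order and pair nothing. CPM values, SDs and 95% intervals come from the same scaling and fits, and intervals of counts cover counting error only. DESeq2 1.42.0 and limma-voom (limma 3.58.1), other scalings and filters, leaving out each library, centring on the median of each chromosome arm with at least 30 genes, a loess correction for GC content and length (span 0.3, GC known for 97.5% and 97.4% of genes tested in A549 and H1299) and summed HSPA1A and HSPA1B counts were alternatives. The scripts were tested on simulated data. Positions and transcript lengths are from GENCODE 29 on GRCh38, in which 56159 symbols (95.1%) were found.

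The 36 members and the 6 further lists were chosen with earlier results of these data known. Values of every library are given for members called in a line or in the difference and for the member with the smallest p in each role and line. From each further list up to 3 called genes per line were to be named. A further marker of line identity is not reported here.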

Additional observations from a re-analysis of the deposited data

Results flagged for a closer look

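Differences between the lines in the knockout effect (H1299 minus A549, log2, edgeR quasi-likelihood test over 12 libraries) drew attention for 10 genes. The mitochondrial pair HSPD1 (0.63, adjusted p = 0.0146) and HSPE1 (0.63, adjusted p = 0.0247) was called. With arm medians removed their values were 0.16 (adjusted p = 0.5696) and 0.16 (adjusted p = 0.6766). DNAJC3 (-0.70, adjusted p = 0.0919) and DNAJB1 (-0.48, adjusted p = 0.0805) had KO libraries all below WT in H1299 and all above WT in A549, but the edgeR test of the difference missed the threshold. DESeq2 called both differences (adjusted p = 0.0357 for DNAJC3 and 0.0116 for DNAJB1), as did the fit after the GC and length correction (0.0211 for DNAJC3 and 0.0369 for DNAJB1), and DNAJB1 was also called after centring (0.0495).

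From the further lists, 6 of 183 genes tested were called (3.28%), 2 higher and 4 lower, beside 3.48% of all 22635 genes. ATF5, a transcription factor of the mitochondrial stress response, stood at -0.97 (adjusted p = 0.0169), with 41.2 ± 3.06 CPM in H1299 KO and 52.4 ± 5.90 CPM in H1299 WT, and 36.4 ± 5.496 CPM in A549 KO and 23.6 ± 2.65 CPM in A549 WT (SD, n = 3 each). SERPINH1, the collagen chaperone HSP47, stood at -0.75 (adjusted p = 0.0308), with 60.9 CPM in H1299 KO and 66.3 CPM in H1299 WT, and 83.2 CPM in A549 KO and 53.6 CPM in A549 WT. DNAJB6, an HSP40 that holds back aggregation, stood at -0.63 (adjusted p = 0.0439). DNAJC15 stood at -3.47 (adjusted p = 0.00414) and rests on 70 counts in A549 KO and 3 in A549 WT. The ER degradation genes AUP1 (0.78, adjusted p = 0.0376, on 2p) and RNF139 (0.70, adjusted p = 0.0244, on 8q) lie on arms that were shifted by -0.47 and -0.23 between A549 KO and WT. After centring within arms ATF5, SERPINH1 and DNAJC15 were still called. The calls of AUP1 (0.26) and RNF139 (0.23) were lost with smaller values, and that of DNAJB6 was lost with a value of -0.59 (adjusted p = 0.0712). Of 12 fits that each left out 1 library, the call was kept in 12 for DNAJC15, 11 for ATF5, 4 for SERPINH1, 4 for RNF139, 2 for AUP1 and 2 for DNAJB6. What sets these differences was not tested.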

How the results depend on the processing

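No paired analysis was possible because the labels give no replicate numbers that groups share. In A549, where 0 members were called, the count was 2 at an adjusted p under 0.1, 2 with DESeq2, 2 after the GC and length correction and 4 in the fit over 12 libraries, and 0 without any 1 library. In H1299, where 1 was called, it was 4 at an adjusted p under 0.1, 2 with DESeq2, 2 after the GC and length correction, 4 without a filter, and 0 with library totals only, the filter of 1 CPM in 3 libraries, limma-voom or the fit over 12 libraries. Leaving out 1 library gave 0 to 3. For the difference between lines, where 2 were called, it was 5 at an adjusted p under 0.1, 7 with DESeq2, 4 after the GC and length correction, 1 after centring within arms and 1 to 3 without 1 library. The cause of these changes was not tested. The all-gene counts moved too: 430 in A549 became 1540 with DESeq2, 1772 in the fit over 12 libraries and 10 (without WT replicate 2) to 1016 (without WT replicate 3) when 1 library was left out, and 1786 in H1299 became 3077 without a filter, 559 in the fit over 12 libraries and 471 (without KO replicate 3) to 1469 (without WT replicate 1) when 1 library was left out. The 788 of the difference became 1706 with DESeq2, 440 after centring and 310 (without H1299 KO replicate 2) to 1359 (without A549 WT replicate 3) when 1 library was left out.

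The sign turned for PDIA6 in the difference after centring (0.47 and then -0.034). Without 1 library the log2 fold change ranged from -0.099 to 0.014 for HERPUD1 in A549, from -0.53 to 0.14 for DDIT3 in A549, from -0.13 to 0.19 for DDIT3 in H1299, from -0.09 to 0.56 for the DDIT3 difference and from -0.052 to 0.026 for PDIA6 in H1299. The A549 ER median of -0.03 ranged from -0.04 to 0.10 without 1 library, and the H1299 cytosolic and mitochondrial median of 0.04 was -0.02 after the GC and length correction. Of the 19 calls in the further lists of H1299, 2 were made in every fit that left out 1 library and 1 under every alternative, and of the 6 in the difference 1 was made in every such fit and under every alternative. The 27 calls between the wild-type lines ranged from 23 to 28 without 1 library. With 3 libraries a group, differences smaller than the printed intervals could not be resolved.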
